A study of Mus musculus with 12 samples.

Results

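The 126 ribosomal protein pseudogenes described here are the rows whose symbol begins with Rps or Rpl and ends in -ps with or without a number, and whose deposited value was 10 or more in at least 3 of the 12 libraries. They are 126 of 322 rows under that symbol pattern and of 56748 rows in all, and 94 of the 196 rows left out were at 0 in every library. The members were chosen by their deposited values over all 12 libraries, so the levels below are a description. A floor of 20 in place of 10 kept 104 rows, a floor of 5 kept 146, and a floor of 10 in at least 6 libraries kept 112.

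The libraries came from retinas of 2-week-old mice, in 4 groups of 3 libraries. All mice carried RiboTag, a floxed allele of the ribosomal protein gene Rpl22 that adds an HA tag after Cre recombination, and i75-Rod-Cre, a Cre driven by the rhodopsin promoter and so active in rods. The Het controls were RiboTag;Shp2fl/+;i75-Rod-Cre (titled "wt" by the submitters, although one Shp2 allele is floxed) and the KO mice were their RiboTag;Shp2fl/fl;i75-Rod-Cre littermates, so the controls also lose one Shp2 allele in rods. RNA was taken before the pulldown of tagged ribosomes (whole retina) and after it (rod translatome, called rod below), following perfusion with cycloheximide, which holds ribosomes on mRNA. No source states that the 3 libraries of a group came from separate mice, so p-values measure the spread between these libraries, which may be technical in part.

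A processed pseudogene is a copy of a mature mRNA that was reverse transcribed and inserted elsewhere in the genome. It lacks introns, usually lacks its parent's promoter, and gathers substitutions over time. Ribosomal protein genes, which encode the structural proteins of the small (Rps) and large (Rpl) ribosomal subunits and are among the most strongly expressed genes of any cell, have left many such copies in mammalian genomes. A short read from a recent copy can match the parent just as well, and how reads with more than one match were counted is not given in the sources used here. A value on a pseudogene row is therefore a value assigned to that row, and reads of a copy and of its parent cannot be told apart wherever their sequences are the same.

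The sequences below, 90 bases each, show how little separates these rows from their parents. They are members whose values by library departed from those of the parent gene, chosen after their values were seen and not by rank. Each was read from GENCODE transcripts on GRCm38, 5′ to 3′ on the transcript strand, and capitals mark the bases at which member and parent differ. The authors' processing notes list GRCm39, so coordinates here refer to GRCm38 only. The Rps18-ps5 window is chr13:28257636-28257725 on the plus strand, with 1 difference from the start of the Rps18 coding sequence.
Rps18: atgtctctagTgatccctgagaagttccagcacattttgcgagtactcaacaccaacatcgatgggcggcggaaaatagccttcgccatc
Rps18-ps5: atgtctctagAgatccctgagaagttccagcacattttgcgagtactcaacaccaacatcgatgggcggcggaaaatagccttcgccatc
The Rpl30-ps9 window is chrX:105278889-105278978 on the minus strand, with 1 difference, and that of Rpl30-ps10 is chrX:71803694-71803783 on the plus strand, with 3. Capitals in the Rpl30 line mark the bases at which Rpl30-ps10 differs.
Rpl30: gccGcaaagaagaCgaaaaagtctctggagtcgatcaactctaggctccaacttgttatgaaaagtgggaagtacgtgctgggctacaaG
Rpl30-ps9: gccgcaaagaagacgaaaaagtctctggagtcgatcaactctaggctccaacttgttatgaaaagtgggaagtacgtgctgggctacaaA
Rpl30-ps10: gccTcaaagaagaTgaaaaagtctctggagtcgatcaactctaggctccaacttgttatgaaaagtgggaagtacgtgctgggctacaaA
The Rpl3-ps2 window, chrX:74171606-74171695 on the plus strand, has 3 differences from Rpl3.
Rpl3: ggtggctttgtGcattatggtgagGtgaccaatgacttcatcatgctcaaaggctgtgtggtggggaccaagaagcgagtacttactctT
Rpl3-ps2: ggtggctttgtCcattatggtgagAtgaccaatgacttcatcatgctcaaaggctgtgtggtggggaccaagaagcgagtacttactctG
The Rps12-ps19 window, chr11:75070978-75071067 on the minus strand, has 3 differences from Rps12.
Rps12: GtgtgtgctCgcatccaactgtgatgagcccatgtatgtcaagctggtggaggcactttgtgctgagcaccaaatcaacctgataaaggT
Rps12-ps19: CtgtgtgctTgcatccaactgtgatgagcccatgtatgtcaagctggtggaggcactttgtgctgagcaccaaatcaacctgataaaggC
An older copy, Rpl9-ps8 (chr3:144625422-144625511, minus strand), has 15 differences from Rpl9 in the same length.
Rpl9: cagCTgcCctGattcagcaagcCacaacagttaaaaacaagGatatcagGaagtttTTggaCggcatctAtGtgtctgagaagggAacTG
Rpl9-ps8: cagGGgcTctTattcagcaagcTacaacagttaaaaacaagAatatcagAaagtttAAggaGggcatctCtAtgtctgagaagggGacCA

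The deposited values are whole numbers scaled by the authors to a near-common total, 14525527 to 14527992 in the retina libraries and 16263948 to 16265259 in the rod libraries, and the steps of low values put the reads behind them at about 9.99e+06 to 2.53e+07 per library. Ptpn11, which encodes Shp2, was at 2511, 2439 and 2431 in Het rods against 1735, 2139 and 1971 in KO rods, all 3 KO values below all 3 Het values. In whole retina it was at 2390, 2512 and 2125 in Het against 2205, 2147 and 2466 in KO mice, and the groups overlapped. Markers of rods made up 4.64 to 5.87% of the total before the pulldown and 14.4 to 16.8% after it. Lens crystallins ranged from 0.00044 to 4.08% among retina libraries, highest in KO retina replicate 3. Xist was above 0, and 4 Y-linked genes at 0, only in replicate 2 of KO retina and KO rod, so that KO replicate 2 did not come from the same mouse as KO replicates 1 and 3.

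By symbol, the 126 pseudogenes comprised 55 copies of small subunit genes and 71 of large subunit genes. Each parent is the gene whose symbol remains without the ending -ps and its number. The symbols name 44 parent genes, 19 small and 25 large. The GENCODE annotation classed 114 as processed pseudogenes, 7 as transcribed processed pseudogenes and 5 (Rpl10-ps3, Rpl36a-ps1, Rpl9-ps6, Rps12-ps3 and Rps18-ps5) as protein coding. In all, 36 lay within a protein-coding gene, 35 of them in introns, with 11 on the host's strand and 25 on the opposite strand. The libraries do not mark strand, so strand cannot tell reads of a host intron from those of a member. Chromosome X held 17 members, 13.5% of them, against 11.5% of the 321 annotated rows under the symbol pattern. For 12 members every stretch of 50 bases also occurred in the parent transcript, 29 had no stretch of 50 bases of their own, and for 23 more than 50% of such stretches occurred nowhere else in the transcripts. The match to the parent named by the symbol was poor for some members. Rpl18-ps1 aligned to Rpl18 over 11.4% of its length, and Rpl36a-ps3 had 40 mismatches to Rpl36a. Neither shared a stretch of 50 bases with that gene. Shares and mismatches of such members refer to the gene named by the symbol.

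Together the pseudogenes took a small share of the deposited values, which varied more between libraries than their sum relative to the parents did. Their summed value took 0.131 to 0.184% of a retina library and 0.101 to 0.143% of a rod library. Relative to the sum of their parents it was 16.4% ± 0.739 in Het retina, 16.5% ± 0.207 in KO retina, 17.3% ± 1.66 in Het rods and 16.4% ± 0.923 in KO rods (SD, n = 3 each), and ranged from 15.4 to 19.1% over the 12 libraries. The 4 groups overlapped. KO retina replicate 3, which had the highest lens share, was the highest of the 12 libraries for 67 of the 126 members, and the part of lens RNA in this was not tested.

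**Figure D1:**
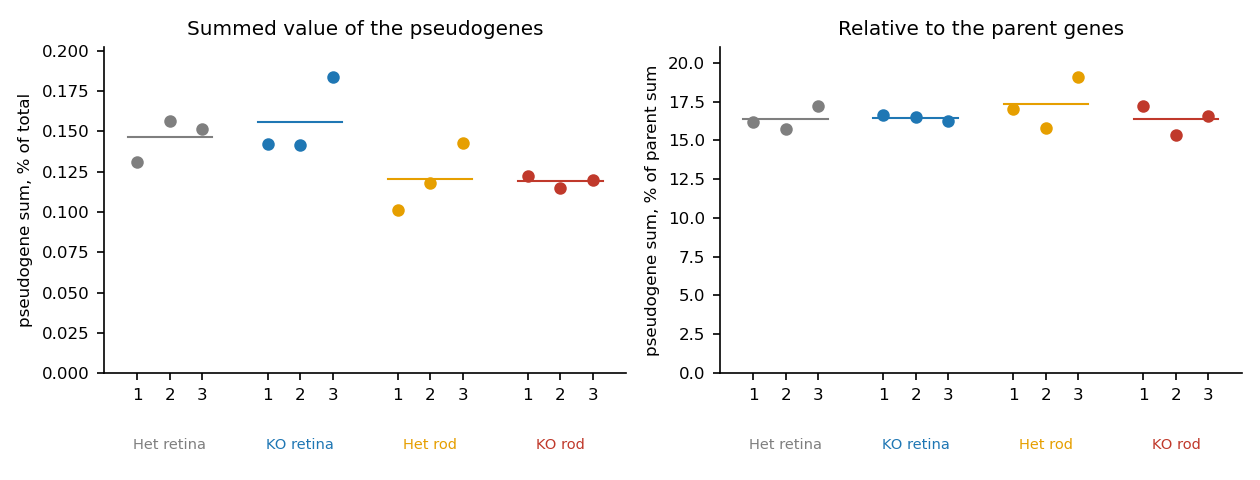
Summed value of the 126 pseudogenes in each of the 12 libraries, as a percentage of the library total (left) and of the sum of their 44 parent genes (right), with points numbered by replicate and lines at group means. The share of the total was 0.131 to 0.184% in retina and 0.101 to 0.143% in rod libraries, and the share of the parents stayed between 15.4 and 19.1%.

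Most members were low and a few were high. The median over the 126 of each member's median value was 53.5, 51 members had a median of 100 or more, 17 had a median under 10, and 97 were at 10 or more in all 12 libraries. The 8 highest made up 30.8 to 38.5% of the summed value in each library. At the edge of the rule, the 14 members with the lowest third-highest value had it at 10 to 12, among them Rpl31-ps4, Rpsa-ps5, Rps15a-ps4 and 4 of the Rps12 copies of chromosome X, and the 15 rows just outside had it at 7 to 9.

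Rpl14-ps1, a copy of the gene for the large subunit protein L14 at chr7:45324965-45325617, in an intron of Trpm4 on the opposite strand, had the highest median, 1351. It was at 1354, 1530 and 1402 in Het retina, 1485, 1417 and 1828 in KO retina, 1013, 1197 and 1348 in Het rods, and lastly 1192, 1154 and 1272 in KO rods. With 4 mismatches to its parent, it was at a median of 60.3% of the value of Rpl14. Rpl21-ps15 (chrX:151215167-151215649, in an intron of Wnk3 on the opposite strand) was the most even of the 8 highest members, at 1183 to 1560 over the 12 libraries, and had 98.0% of the value of Rpl21. Per kb of annotated length it was the higher of the pair, at a median value of 2792 per kb against 2069 for Rpl14-ps1.

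Rps6-ps4, a copy of the gene for S6, the small subunit protein phosphorylated downstream of mTOR, was identical to its parent over its length and ranged from 892 to 1221. Its share of the value of Rps6 was nearly constant, at 16.6 to 19.3%. Rpl9-ps6 and Rpl9-ps4, each with 1 mismatch to Rpl9, were likewise steady, at 584 to 793 and 564 to 785, or 9.39 to 10.8% and 9.06 to 11.6% of Rpl9. The share of each of these 3 members thus varied little between libraries.

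Other high members varied more. Rps27a-ps2, a copy in an intron of Lca5 of the gene for a ubiquitin fusion to S27a, was at 917, 601 and 1123 in Het retina, 253, 863 and 212 in KO retina, 891, 646 and 1210 in Het rods, and lastly 825, 287 and 621 in KO rods. It thus varied within every group, most of all within the KO groups, while its parent ranged only from 2978 to 5011. Rpl23a-ps3 was at 526 to 858 over the libraries against 172 to 1013 for Rpl23a, and so held 84.7 to 353% of its parent's value.

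Relative to their parents, the pseudogenes had a median of 2.52% over the 124 members whose parent is not Rps10. Of these, 34 were under 1%, 59 from 1 to 10% and 31 over 10%. The highest shares were those of Rpl23a-ps3 (148%), Rpl21-ps15 (98.0%), Rpl14-ps1 (60.3%) and Rpl7a-ps11 (52.0%), and the lowest those of Rpl31-ps4 (0.145%), Rpsa-ps5 (0.146%), Rps15a-ps4 (0.219%) and Rpl9-ps8 (0.223%). The 2 copies of Rps10 stood apart, because the row of Rps10 itself was at 15 to 36 in retina libraries and at no more than 5 in any rod library. Rps10-ps2 was at 278 to 583 and Rps10-ps1 at 25 to 138, with 5 and 6 mismatches to Rps10, so that the copies exceeded their parent in every library.

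The share fell with the distance in sequence from the parent. The 14 members with no mismatch had a median of 17.4% of the parent's value, the 37 with 1 to 3 mismatches 6.13%, the 48 with 4 to 10 mismatches 1.47%, and the 27 with more than 10 mismatches 0.752%. Across the 124 members, Spearman's rho was -0.65 between mismatches and share, and 0.71 between the percentage of 50-base stretches that occur in the parent and share. These are descriptions across members of the same 12 libraries, and members of a family share a parent.

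**Figure D2:**
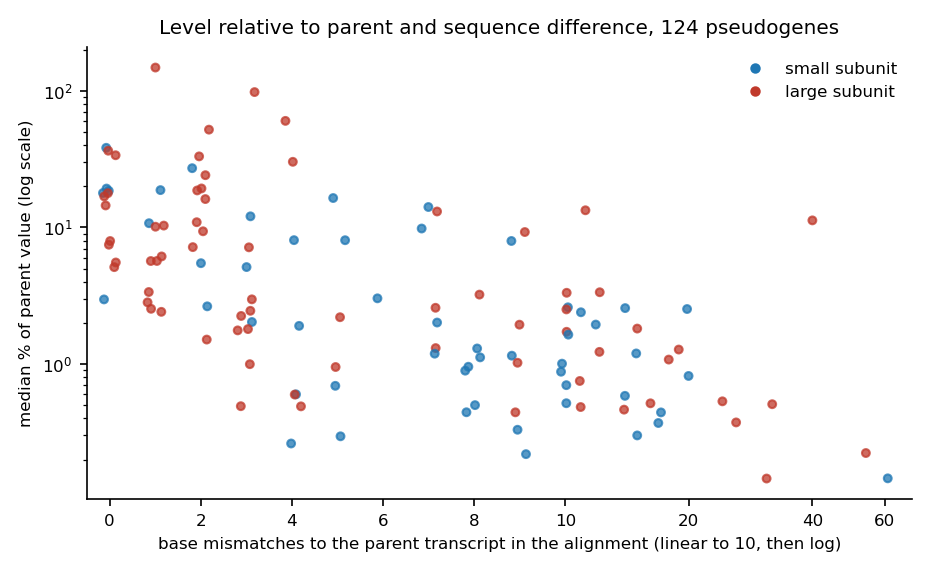
Median share of the parent's value over 12 libraries (vertical axis, percent, log scale) against base mismatches to the parent transcript (horizontal axis, linear to 10, then log) for 124 pseudogenes, with copies of small and large subunit genes in 2 colors. Shares fell from a median of 17.4% at no mismatch to 0.752% at more than 10.

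In all, 20 parents had 3 or more members. Among the 10 members of the Rps12 family, 5 (Rps12-ps13, -ps14, -ps15, -ps17 and -ps18) lie on chromosome X between 124855729 and 125858081, and their values were all between 4 and 16, with those above 10 all in retina libraries. Rps12-ps3, which has no mismatch to Rps12, held a median of 38.3% of its parent's value. Within a family the share did not always follow the mismatches. Rps19-ps3, with 14 mismatches, held 2.57% of its parent's value against 0.444% for Rps19-ps1, with 8.

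The first comparison asks which pseudogenes were over- or under-represented in the RNA pulled down with rod ribosomes. In bulk RNA, fewer cells of a type and less RNA per cell cannot be told apart. Few pseudogenes passed the test between rods and whole retina. Of the 126, 110 had enough signal to be tested in Het mice, and 5 were higher and 4 lower in rods (adjusted p under 0.05 and a log2 fold change beyond 0.5, limma on log2 of the scaled value plus 2, adjusted over all rows). The background was large, with 59% of all 16110 rows tested called, 22.7% higher and 36.4% lower, against 8.18% of the pseudogenes. Of the 9 calls, 2 were of members with a value under 10 in the lower group, which passed the filter on low values only through the group where they were high. The groups of 3 did not overlap after scaling for 24 pseudogenes (21.8%), against 68.9% of all rows. The median log2 fold change was 0.07 over the pseudogenes and -0.08 over all rows. Scaling by library size alone moved these medians to -0.34 and -0.51 and the calls to 1 higher and 23 lower, with 1168 higher and 7399 lower of all rows in place of 3650 and 5856. Removing each library's trend with GC content, which also shifts the level of the library, moved the medians to -0.23 and -0.39. It gave 1 higher and 21 lower, with 1709 and 7193 of all rows. The sign of the pseudogenes' median thus hung on the scaling, while that median stayed above the median of all rows in each of these settings.

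In KO mice, 113 pseudogenes were tested, of which 4 were higher and 3 lower in rods (6.19%), against 63% of 16121 rows, 26.9% higher and 36.1% lower. The groups did not overlap for 29 (25.7%), against 73% of all rows. Library size alone gave 0 higher and 32 lower, and the GC correction 0 and 28, with 1144 higher and 7846 lower, and 1696 and 7381, of all rows in place of 4341 and 5813.

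Of 4 copies of Rpl10, 3 were called lower in rods in both genotypes. Rpl10 encodes L10, which joins the large subunit late in its maturation. Rpl10-ps1 (chr2:105554201-105554845), without a mismatch to Rpl10, was at 137, 213 and 179 in Het retina, 165, 188 and 293 in KO retina, 70, 97 and 88 in Het rods, and lastly 105, 96 and 87 in KO rods. All 6 rod values were below all 6 retina values. Its log2 fold change in rods was -0.75 ± 0.25 (SE, limma adjusted p = 0.027) in Het and -0.71 ± 0.25 (adjusted p = 0.032) in KO mice. Rpl10-ps3 and Rpl10-ps6 fell by 0.67 each on the log2 scale in Het and by 0.75 and 0.79 in KO mice, all called. The other copy, Rpl10-ps5, also had log2 fold changes below 0 in both genotypes but was not called. Rpl10 itself, at 2508 to 4789 in retina and 1551 to 1741 in rods, fell by 0.64 in Het (adjusted p = 0.0099) and by 0.69 in KO mice (adjusted p = 0.0095). The pseudogene rows and the parent row thus moved the same way in both genotypes. The 3 called copies have 0 or 1 mismatch to Rpl10 and to each other, so these cannot be taken as independent results. In Het mice the calls of the 3 called copies were lost without Het retina replicate 2 or 3 or Het rod replicate 1 or 3, and those of Rpl10-ps3 and Rpl10-ps6 also without Het rod replicate 2. In KO mice Rpl10-ps1 lost its call with a replicate block and without KO retina replicate 3 or any KO rod library, Rpl10-ps3 without KO rod replicate 2 or 3 and Rpl10-ps6 without KO rod replicate 3. The log2 fold changes stayed below 0 throughout, from -1.35 to -0.46 over the alternatives. Without Het rod replicate 3, 2 of the 9 Het calls (Rps12-ps19 and Rps19-ps3) were left.

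Rps19-ps3 (chr4:147821777-147822202), with 14 mismatches to Rps19, was at 65, 68 and 46 in Het retina and 22, 19 and 36 in Het rods, where it fell by 0.92 ± 0.31 on the log2 scale (adjusted p = 0.031). In KO mice it was at 44, 80 and 70 in retina and 25, 35 and 22 in rods, values that overlap only after scaling, and was not called (log2 fold change -0.79, adjusted p = 0.053). The log2 fold change of Rps19 in Het mice was -0.18, not called.

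Rps12-ps19 (chr11:75070814-75071213, in an intron of Smg6 on the opposite strand) was called in Het rods on values led by 1 library. It was at 12, 1 and 29 in Het retina and 74, 62 and 314 in Het rods, a log2 fold change of 3.65 ± 0.87, with the highest value in Het rod replicate 3, while Rps12 had -0.63 (adjusted p = 0.12). It was tested in Het mice only through its rod values, since 2 of the 3 retina values reached 10, so its call is no support for a difference. In KO mice it was at 3, 11 and 0 in retina and 0, 61 and 13 in rods and was not called. Rpl29-ps2, a transcribed pseudogene at chr13:4609334-4615025, was at 38, 58 and 27 in Het retina and 69, 62 and 79 in Het rods, a log2 fold change of 1.07 ± 0.31 (adjusted p = 0.016). It rose by 1.02 ± 0.34 in KO mice too (adjusted p = 0.026), although there the groups, 48, 34 and 80 against 62, 88 and 93, overlapped. Rpl7-ps8 and Rpl5-ps1 were also called in Het rods, at 0.87 (adjusted p = 0.0499) and 0.65 (adjusted p = 0.028). Rpl7-ps8 was called under 6 of 14 alternatives (adjusted p from 0.015 to 0.27) and Rpl5-ps1 under 9 (0.0061 to 0.42), and both lost the call with library size alone, with the GC correction, and without Het retina replicate 1, Het rod replicate 2 or Het rod replicate 3. Rpl29-ps2 lost it in Het mice without Het rod replicate 3 and in KO mice without KO retina replicate 1 or 2 or KO rod replicate 2 or 3, and in both with library size alone and the GC correction.

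In KO rods Rpl10a-ps1, identical to the parent over its length, rose by 0.68 ± 0.13 (500, 625 and 516 in KO retina against 660, 677 and 652 in KO rods, adjusted p = 0.0015), exactly as its parent Rpl10a did (0.68). With library size alone and with the GC correction Rpl10a-ps1 lost the call. In Het mice it was at 536, 582 and 536 in retina and 568, 662 and 693 in rods, and was not called in the main fit. It was called there with size factors by median ratios, and without Het retina replicate 1, 2 or 3 or Het rod replicate 1. Rpl19-ps1, at 0.83 (adjusted p = 0.045), was called under 2 of 14 alternatives, with log2 fold changes from 0.25 to 1.06 and adjusted p from 0.024 to 0.48, and of the libraries it kept the call only without KO rod replicate 3. Rpl27-ps3, at 0.65 (adjusted p = 0.023), was called under 9 of 14 (adjusted p from 0.00067 to 0.71), and not without KO retina replicate 1 or KO rod replicate 1 or 2. The calls in the 2 genotypes shared 4 members (Rpl10-ps1, -ps3 and -ps6 and Rpl29-ps2), 44.4% of the 9 in Het and 57.1% of the 7 in KO mice. Without KO retina replicate 3, 17 members were called in KO mice, 5 of them among the 7, and without KO rod replicate 2 or 3, 3 and 4 were, 2 and 3 of them among the 7.

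Among the parents, 3 of 44 were higher and 2 lower in rods in each genotype, and among the 79 cytosolic ribosomal protein genes 3 were higher and 2 lower in Het and 7 higher and 2 lower in KO mice. Across pseudogenes, fold changes of member and parent had the same sign for 78 of 110 in Het and 97 of 113 in KO mice, with Spearman's rho of 0.55 and 0.70 and Pearson's r of 0.22 and 0.47. For the 14 members without a mismatch rho was 0.68 and 0.90 and r was 0.72 and 0.93. Between genotypes, rho was 0.42 and r 0.04 over 107 members in rods, and rho was 0.06 and r -0.34 over 120 in whole retina. Members of a family share a parent value, so these are descriptions across members.

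**Figure D3:**
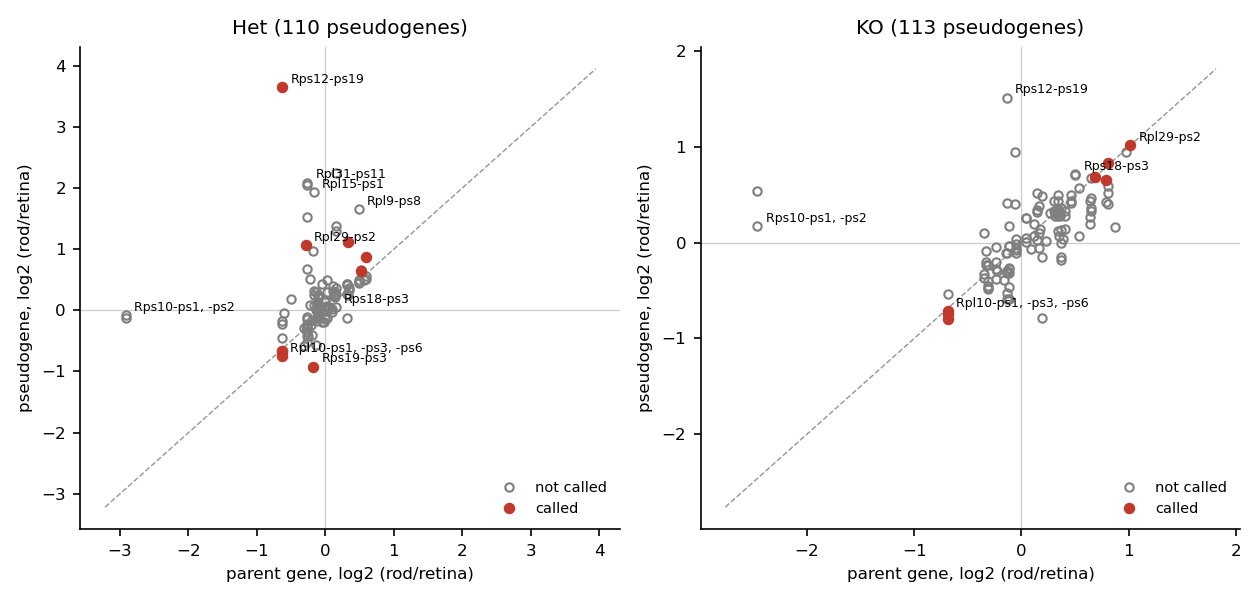
Log2 fold change of rod over whole retina of each tested pseudogene (vertical) against that of its parent gene (horizontal), in Het (110 members) and KO mice (113 members), with called members filled and the dashed line marking equal change. Most points lie near the line around 0, Rpl10 copies at the lower left, and Rps12-ps19 far above the line in Het mice.

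The second comparison asks what changed in rods that lost Shp2. Of 109 pseudogenes tested, 11 were higher and 1 lower in KO than in Het rods (11.0% called), against 13.6% of 13055 rows, 12.1% higher and 1.55% lower. The groups did not overlap for 30 (27.5%), against 43.5% of all rows, and the median log2 fold change was 0.07 over the pseudogenes and 0.01 over all rows. Of the 43 parents tested, 12 were higher and none lower, and of 78 cytosolic ribosomal protein genes 25 were higher and none lower. When the trend on GC content was removed, 2 of the 12 calls were left (Rpl28-ps1 and Rps12-ps24), and 163 rows were higher and 173 lower in place of 1579 and 202. When all 12 libraries were fitted together, no pseudogene and no other row was called (18 pseudogenes had an unadjusted p under 0.05).

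All 4 copies of Rps2 were called higher. Rps2 encodes S2, a small subunit protein near the mRNA entry channel. Rps2-ps13 (chrX:52898588-52899469, 7 mismatches) was at 118, 132 and 164 in Het rods against 249, 291 and 208 in KO rods, a log2 fold change of 0.95 ± 0.17 (adjusted p = 0.0041). Rps2-ps10, in an intron of the rod gene Pde6a on the opposite strand, rose by 0.92, Rps2-ps6 by 0.80 and Rps2-ps8 by 0.68. The deposited values did not overlap for the first 2 of these, while those of Rps2-ps8 (72, 67 and 112 against 118, 140 and 111) separated only after scaling, and it was called under 8 of 16 alternatives. Rps2 was at 1131, 1644 and 1218 in Het rods against 1451, 1320 and 1425 in KO rods, a log2 fold change of 0.20 ± 0.13 (adjusted p = 0.29). The 4 copies thus passed the test and the parent row did not, and whether copies and parent differ in their change was not tested. The copies have 2 to 10 mismatches to each other, so their calls cannot be taken as 4 independent results. All 4 lost the call with the GC trend removed. In whole retina the log2 fold changes of the 4 copies were 0.30 to 0.59, none called, and the genotypes did not overlap for Rps2-ps6 alone.

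Rpl28-ps1 (chr1:128038569-128038982), identical to its parent over its length, was at 59, 97 and 87 in Het rods against 167, 197 and 164 in KO rods, a rise of 1.23 ± 0.20 (adjusted p = 0.0030). Rpl28 rose by 1.05 ± 0.20 (adjusted p = 0.012). Rps12-ps24 (chr8:36025753-36026133) was at 7, 10 and 9 in Het rods against 20, 35 and 20 in KO rods, a log2 fold change of 1.40 ± 0.34. It was tested only through its KO values, so its call is no support for a difference. Rps12 rose by 0.84 ± 0.23 (adjusted p = 0.039). The further rises, of Rps10-ps1 (0.93), Rpl7a-ps11 (0.73), Rpl15-ps3 (0.69) and Rpl34-ps1 (0.60), were smaller. Rps10-ps1 was called under 9 and Rpl34-ps1 under 8 of 16 alternatives. The 1 member called lower was Rps4x-ps (chr5:3875362-3876154, 17 mismatches), at 34, 34 and 66 in Het rods against 20, 12 and 23 in KO rods, which fell by 1.07 ± 0.33 on the log2 scale (adjusted p = 0.033), against -0.19 for Rps4x (adjusted p = 0.16). It lost the call without Het rod replicate 1 or 3 or KO rod replicate 1 or 2. In all, 46 of the 109 had a log2 fold change below 0, and 8 that were not called lay below Rps4x-ps, from -3.17 (Rpl9-ps8) and -3.14 (Rps12-ps19) to -1.09, with adjusted p from 0.13 to 0.41. All 8 had their highest value in Het rod replicate 3. Without Het rod replicate 1 or KO rod replicate 1, 6 of the 12 calls were kept, and without KO rod replicate 2, 5 were, with Rpl9-ps8 called in addition.

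Copies of Rps18 were higher in KO mice, while the fold change of their parent was below 0. Rps18 encodes S18, a protein of the small subunit head. Rps18-ps5 (chr13:28257528-28258134, 4 mismatches, annotated as protein coding) was at 25, 40 and 111 in Het rods against 285, 474 and 184 in KO rods. In whole retina it was at 37, 43 and 71 in Het against 258, 160 and 318 in KO mice. All 6 KO values were above all 6 Het values. The log2 fold change was 2.65 ± 0.68 in rods (adjusted p = 0.053, not called) and 2.25 ± 0.35 in whole retina (unadjusted p = 0.000265, adjusted p = 1.0, not called). The rod value was called under 2 of 16 alternatives, without Het rod replicate 3 and when rows depleted in rods were removed first, and over all of them the adjusted p ranged from 0.014 to 0.30.

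Rps18-ps3 (chr8:107262793-107263248, 3 mismatches) went the same way, from 28, 57 and 71 in Het rods to 128, 186 and 100 in KO rods, a rise of 1.53 ± 0.36 (adjusted p = 0.019). It lost the call without KO rod replicate 1 and with the GC trend removed. In whole retina it was at 45, 69 and 59 in Het against 116, 62 and 166 in KO mice, which overlap (log2 fold change 0.90, not called). Rps18 itself was at 1593, 2683 and 1834 in Het rods against 740, 886 and 1823 in KO rods, and at 2281, 3648 and 1237 in Het retina against 679, 505 and 2805 in KO retina. The parent was thus low in KO replicates 1 and 2 of both fractions and not in replicate 3, and its log2 fold changes, -0.80 in rods and -1.12 in retina, were not called.

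As a share of its parent, Rps18-ps5 was at 34.0% ± 22.0 in KO rods and 3.04% ± 2.61 in Het rods, and at 27.0% ± 13.9 in KO retina and 2.85% ± 2.52 in Het retina (SD, n = 3 each). The share of Rps18-ps3 was 14.6% ± 8.10 and 2.58% ± 1.13 in KO and Het rods, and 11.8% ± 5.60 and 2.88% ± 1.64 in KO and Het retina. The log2 shares of Rps18-ps5 differed between genotypes by 3.45 in rods and 3.38 in retina, and those of Rps18-ps3 by 2.33 and 2.02. Each of these 4 comparisons had a two-sided exact permutation p = 0.1, the smallest that 3 against 3 allows, also after adjustment. Both members were picked from these same data, so these p-values are no independent support. The paper reports Rps18-ps5 as differing between retinas of the genotypes. Rps12-ps19 stood further from its parent between rods, with a log2 fold change of -3.14 against 0.84 for Rps12, and was not called. In the sequence shown for Rps18-ps5 the copy and parent differ at 1 base of 90, and 60.7% of all its 50-base stretches occur in Rps18.

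**Figure D4:**
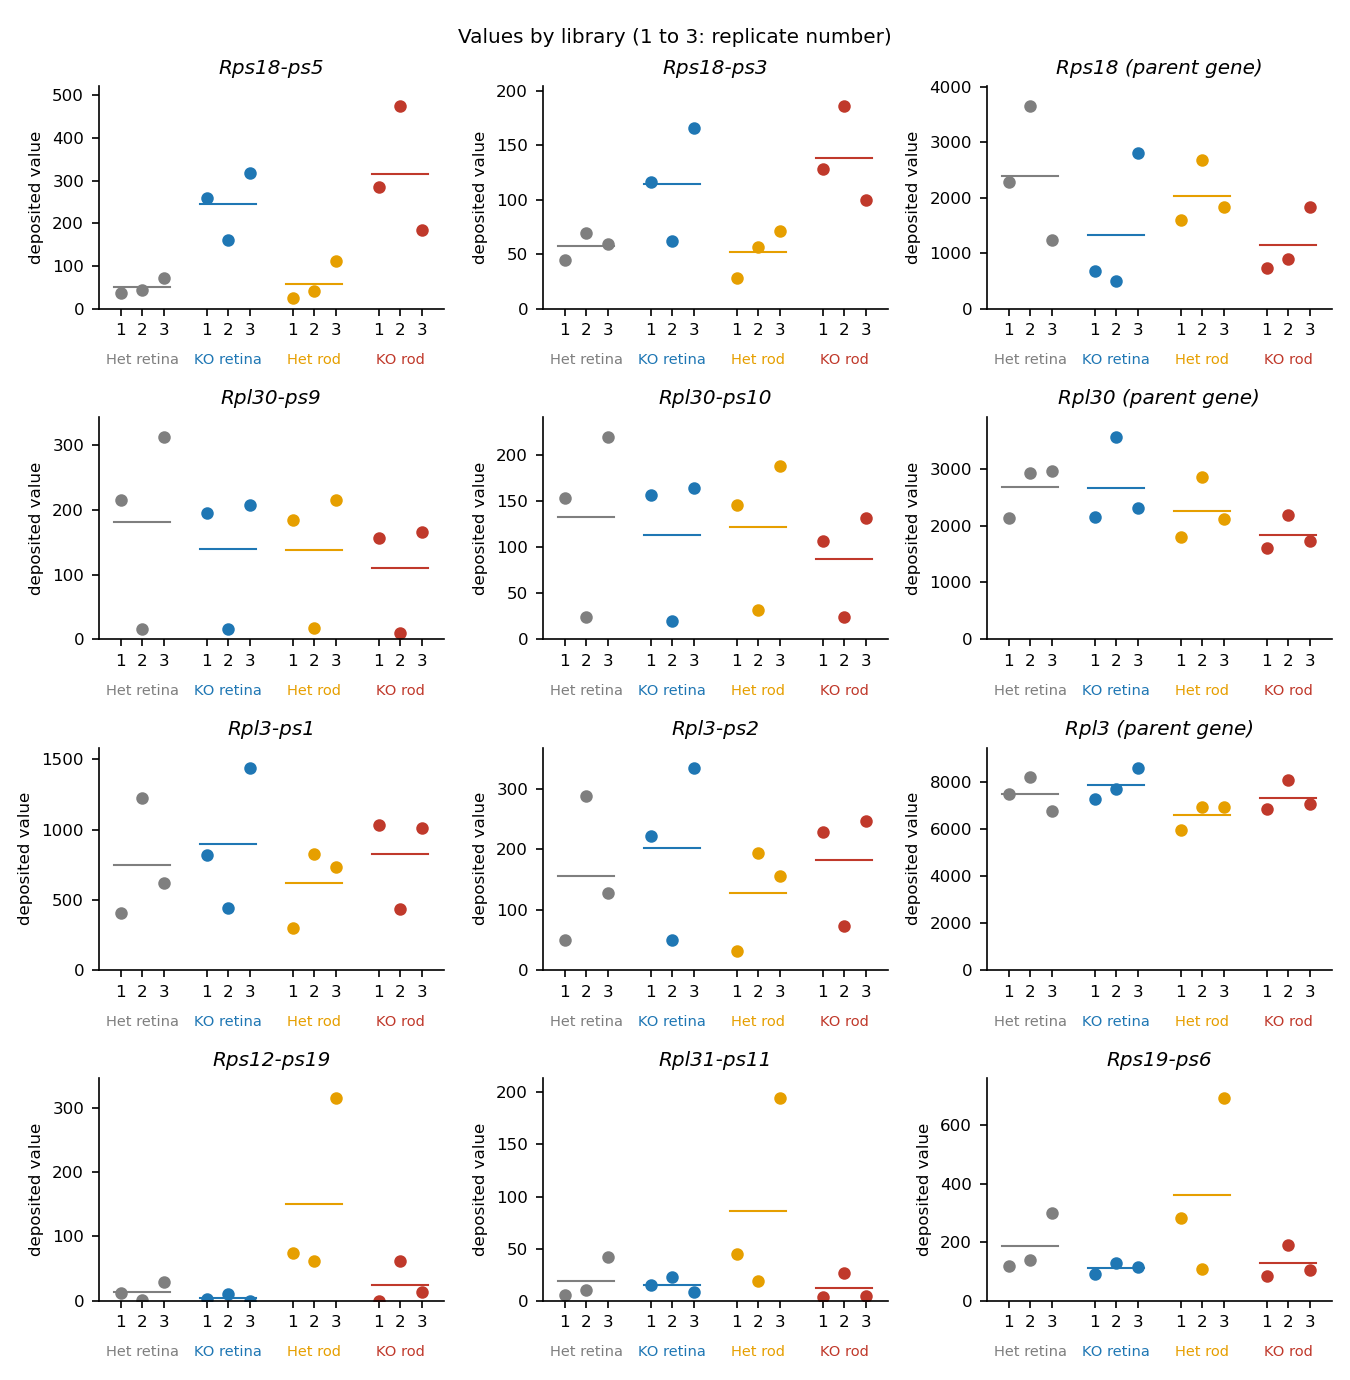
Deposited values of 9 pseudogenes and 3 parent genes in each of the 12 libraries, with points numbered by replicate within each group and lines at group means. The Rps18 copies had higher group means in KO than in Het mice, and Rps18 had lower ones. Within KO retina the Rps18 copies and Rps18 were all highest in replicate 3. The Rpl30 copies were low in replicate 2 of every group, and the Rpl3 copies in Het replicate 1 and KO replicate 2. The bottom row was highest in Het rod replicate 3.

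In whole retina, 120 pseudogenes were tested between genotypes and limma called none, as it called none (0%) of 16863 rows. An unadjusted p under 0.05 was reached by 3 pseudogenes and 140 rows. The groups did not overlap for 6 pseudogenes (5.0%), against 3.5% of all rows, and the log2 fold change was above 0 for 96 of 120, with a median of 0.15 against 0.01 over all rows. That shift rested on KO retina replicate 3, the library with the highest lens share, without which 54 of 117 were above 0 and the median was -0.01, as it was over all rows. Without Het retina replicate 1, 73 of 117 were above 0, with a median of 0.05. The smallest unadjusted p among pseudogenes was that of Rpl9-ps8 (chr3:144625403-144625964, 54 mismatches, none of its 50-base stretches in Rpl9), which was at 16, 15 and 14 in Het retina and at 0 in all 3 KO retina libraries. With 3 reads per library as the floor in KO retina, the Het mean was 4.53 times the mean floor. This ratio leaves out the counting error of the low Het values, so it is not a lower bound on the change. Rpl9-ps8 passed the filter on low values only through the Het libraries, and it was not called (adjusted p = 0.40). Its values are thus no support for a difference. In rods it was at 25, 17 and 172 in Het against 0, 24 and 0 in KO mice, which overlap.

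No member was called in the difference between the knockout's effect in rods and in whole retina (124 tested, limma, 0 with an unadjusted p under 0.05), nor was any (0%) of 17192 rows, of which 517 had an unadjusted p under 0.05. The smallest p values were those of Rpl31-ps9 and Rpl31-ps11, with differences of -1.79 ± 0.90 and -2.35 ± 1.22 on the log2 scale (adjusted p = 0.89 each). The corresponding difference for Rps18-ps5 was 0.44 ± 0.71 (adjusted p = 0.92).

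**Figure D5:**
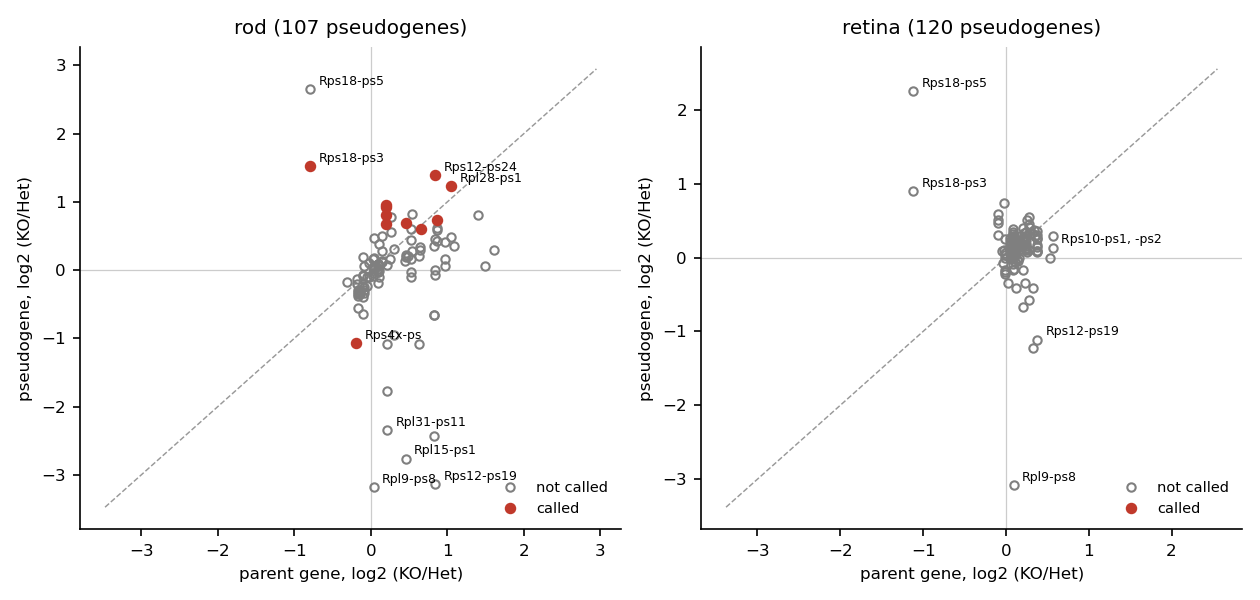
Log2 fold change of KO over Het of each tested pseudogene (vertical) against that of its parent gene (horizontal), in rods (107 members with a tested parent) and whole retina (120 members), with called members filled and the dashed line marking equal change. Rps18-ps5 and Rps18-ps3 lie at the upper left in both panels, with the pseudogene higher and the parent lower in KO mice, and Rpl9-ps8 lies lowest in whole retina.

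Several pseudogenes varied from library to library more than they did between groups. The following were chosen after their values were seen, and no test was made. Rpl30-ps9 was at 16, 16, 17 and 10 in replicate 2 of Het retina, KO retina, Het rods and KO rods, and at 157 to 313 in the other 8 libraries. Rpl30-ps10 was at 20 to 32 and at 106 to 219 in the same 2 sets of libraries. Rpl30, which encodes a large subunit protein, was at 1601 to 3557 and was highest in replicate 2 in 3 of the 4 groups. Both copies lie on chromosome X, at separate places, and differ from Rpl30 at the bases shown above.

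Rpl3-ps1 (chrX:13202571-13203780, 2 mismatches) and Rpl3-ps2, also on chromosome X, had another pattern. Rpl3-ps2 was at 50 and 32 in Het replicate 1 of retina and rods and at 50 and 73 in KO replicate 2, and at 128 to 335 in the other 8 libraries. Rpl3-ps1 was lowest in the same libraries, at 407, 297, 441 and 437, and at 620 to 1440 elsewhere. Rpl3, whose product lies near the peptidyl transferase center, ranged only from 5952 to 8618. Of the 17 members on chromosome X, 5 (these 4 and Rpl19-ps12, which was at 0 in 3 libraries) had a highest value over 4 times the lowest or a value of 0, against 32 of the other 109. The remaining 12 had ratios of 1.32 to 3.75.

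Het rod replicate 3 was the highest of the 12 libraries for 25 members, and for 9 of them it was more than 2 times the next library (2.3 to 6.88 times). These 9 were Rps12-ps19 (314), Rpl31-ps11 (194), Rpl19-ps1 (187), Rps19-ps6 (690), Rpl9-ps8 (172), Rpl15-ps1 (133), Rpl31-ps4 (106), Rpl31-ps9 (255) and Rpl19-ps7 (133). They have 2 to 54 mismatches to 6 different parents and lie on 6 chromosomes. Of these, 7 also had their highest retina value in Het retina replicate 3, among them Rpl15-ps1, with 5, 3 and 21 in Het retina, and this member was at 0 in KO replicates 1 and 3 of both fractions. No such excess over the next library was seen in any of the other 11.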

How the data were processed

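Polyadenylated RNA of whole retina and of the rod translatome was converted to cDNA with a SMART-Seq V4 kit, which does not mark strand, and sequenced in 12 libraries. Per the authors' processing notes the tools were CASAVA 1.8.2, HISAT2, edgeR and DESeq2 and the build GRCm39. Filters, the counter and the handling of reads with several matches are not given in the sources used here. The authors deposited a signal per gene in whole numbers scaled to near-common totals, not raw counts, so that count models were not used although the planned design had allowed for them. The members and gene lists were chosen with earlier results of these data known. No column of another sample was present. A member included in the counts is not reported here by name.

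Values were rescaled by trimmed means (TMM), rows with about 10 or more in at least 3 libraries of a comparison and a sum of 15 or more were kept, and log2(value + 2) was fitted with limma 3.58.1 (trend, robust, R 4.3.3) on the groups compared, with Benjamini-Hochberg adjustment over all rows tested. Fold changes are on this log2(value + 2) scale, which understates the change of low rows. Scripts were tested on simulated data. Log shares were compared by exact permutation (scipy 1.17.1). Members and parents were matched by Ensembl gene ID to GENCODE on GRCm38 (all 126 members matched) and aligned to the parent's transcript. The genes named were the 8 members highest in median, up to 3 called rises and 3 called falls per comparison with non-overlapping groups, Rps18-ps5, the 2 with the smallest p where none was called, the 4 highest and lowest in share of the parent, families of 3 or more, the rows at the edge of the rule, and the parents of these, and genes beyond this are said to be chosen after their values were seen or listed to complete a count. Alternatives were other scalings, pseudocounts and filters, a GC trend, a replicate block, all libraries in 1 fit and leaving out each library.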

Additional observations from a re-analysis of the deposited data

How the results depend on the processing

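Main counts of pseudogenes called were 9 (rod against retina, Het), 7 (the same, KO), 12 (KO against Het rods), 0 (KO against Het retina) and 0 (the difference of the knockout's effects). In the Het fraction comparison, library size alone gave 24 (1 higher, 23 lower) and the GC correction 22 (1 and 21). Size factors by median ratios gave 8 higher and all 12 libraries in 1 fit 9 higher. Leaving out each library gave 2 to 17 (1 to 16 higher, 0 to 3 lower), the extremes being without Het rod replicate 3 and without Het retina replicate 3. In the KO fraction comparison, library size alone gave 32 (0 higher, 32 lower), the GC correction 28 (0 and 28) and median ratios 5 lower. Leaving out each library gave 3 to 17 (1 to 15 higher, 0 to 4 lower), and 6537 to 9573 rows in all. Leaving out a retina library also lowers the rows tested, since the filter asks for 3 libraries. Between rods of the 2 genotypes, the GC correction gave 2 (2 higher, 0 lower) and 336 rows in place of 1781, and all 12 libraries in 1 fit gave 0 (0 higher, 0 lower) and 0 rows. Leaving out each library gave 6 to 14 (5 to 13 higher, 0 to 1 lower) and 1067 to 1966 rows. Between retinas and in the difference of effects, leaving out each library gave 0 to 1 rows and 0 pseudogenes. Where no construction shows it, the cause was not tested.

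The log2 fold change of Rps18-ps5 between fractions in Het mice, 0.27, reversed to -0.16 with library size alone, to -0.088 with the GC correction, and ranged from -0.32 (without Het rod replicate 3) to 0.73 over the libraries left out. Its difference of effects, 0.44, ranged from -0.02 (without Het rod replicate 1, reversed) to 1.02.

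No source ties replicate numbers to mice. Sex-linked genes (KO replicate 2) and lens crystallins (lowest in Het replicate 1, highest in KO replicate 3) repeated by number in both fractions. The Rpl30 and Rpl3 copies on chromosome X did so too. However, deviations of same-numbered libraries correlated at 0.51, 0.67 and 0.02 (Het rods and retina) and 0.33, -0.48 and -0.33 (KO rods and retina). Within each genotype, not every library correlated best with its own number in the other fraction. Between genotypes the correlations were 0.14, 0.29 and -0.14 (rods) and 0.38, -0.88 and -0.69 (retinas). Libraries of different genotypes cannot share a mouse, so these last values cannot show whether a number marks a mouse. With a replicate block, 19 pseudogenes were called in the Het fraction comparison (14 higher), 6 in the KO one (5 of the 7, without Rpl10-ps1 and Rpl19-ps1) and 13 between rods, and with the GC correction too 2 between rods (2 higher, 0 lower) and 370 rows.

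Depth limited the lowest members: 3 reads were worth a value of 1.93 to 4.36, close to the rule's floor of 10, and 5 members were at 0 in at least 1 library. The floor of 3 reads covers only the counting error of values at 0, while each SE or SD given above reflects the spread between libraries.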
